A study of Mus musculus with 2 samples.

Results

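Rab GTPases and sorting nexins are the protein families that organise traffic between endosomes, and their transcripts were followed in DC1940 cells, a mouse C57BL/6 line of CD8α+ dendritic cells labelled wild type. They bore an empty vector and were challenged with pIC, a synthetic double-stranded RNA recognised by the receptor TLR3, for a time not stated for these libraries. There was 1 group of 2 libraries of poly(A) RNA, with no other allele or agent named. DC1940 is a continuous line, so both libraries share its origin. The members were the rows whose symbol starts with Rab or Snx and a number, leaving out proteins named for binding or regulating a Rab. This gave 37 of the 4898 rows of the table, 19 Rab rows and 18 sorting nexin rows. Of these, 36 are protein-coding, and Rab26os is a noncoding RNA.

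The deposited table gives 1 value per gene for the stimulated cells, in FPKM, which divides fragment counts by the length of the transcript and by the mapped total. It is the authors' value over the group, with no SD or replicate number, and neighbours in the order of levels cannot be set against a spread. The sheet's name calls its rows differentially expressed between unstimulated and pIC-stimulated cells. The direction and size of those differences were not analysed here, and every value below is a level after stimulation. As to cell identity, 8 of 12 markers of CD8α+ dendritic cells had a row, led by Xcr1 at 387 FPKM and Cd8a at 292, with a summed level of 1056 FPKM. Lists for other conventional dendritic cells (3 of 10 listed), plasmacytoid dendritic cells (3 of 8), macrophages and monocytes (7 of 10), lymphocytes (1 of 8) and fibroblasts or epithelium (1 of 8) summed to 3.21, 9.96, 44.2, 1.22 and 0.772 FPKM. Cd68 made up 33.2 FPKM of the macrophage sum, and Lyz2 followed at 5.40. Klf4 and Clec4a1 led the other conventional dendritic cells at 1.85 and 1.18 FPKM, and Tcf4 and Lair1 the plasmacytoid list at 5.41 and 2.60. The lymphocyte and fibroblast or epithelial rows were Lck, whose row carries accessions of 2 genes, and Cdh1. Of the first list 66.7% and of the macrophage list 70% had a row, so that share does not set them apart. Over all RefSeq protein-coding genes it was 22.2%. Genes without a row among those used here have no value and add nothing to the sums. Among them are Itgae, Irf8, Batf3 and Id2 of the first list, and Sirpa and Irf4 of the other conventional dendritic cells.

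Rab proteins are small GTPases that switch between a GDP-bound and a GTP-bound form. In the GTP-bound form each sits on a particular membrane and recruits the motors, tethers and coats that move or fuse it. Sorting nexins carry a PX domain that binds phosphoinositides on endosomes, and those with a BAR domain bend membrane into the tubules that return cargo to the cell surface or the Golgi. In dendritic cells these routes carry engulfed antigen, MHC molecules and the endosomal Toll-like receptors.

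The members spanned a wide range of levels, with the Rab rows higher than the sorting nexin rows at the median. The median of the 37 rows was 18.9 FPKM, against 9.68 for all rows of the table, and 22 members lay above that value. At 100 FPKM or more stood 8 members, 6 Rab genes and 2 sorting nexins, where 9.60% of all rows did. Under 1 FPKM stood 6 members, Rab27a, Rab4a, Snx30, Snx7, Snx32 and Snx29, where 14.1% of all rows did. Another 14 members lay from 10 up to 100 FPKM and 9 from 1 up to 10. The Rab rows had a median of 31.1 FPKM (quartiles 4.24 and 159) and the sorting nexins one of 8.97 (quartiles 1.12 and 27.5), a difference without a test. Without the rows that overlap another protein-coding gene, the sorting nexin median was 16.4 FPKM and the Rab median 31.1.

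**Figure D1:**
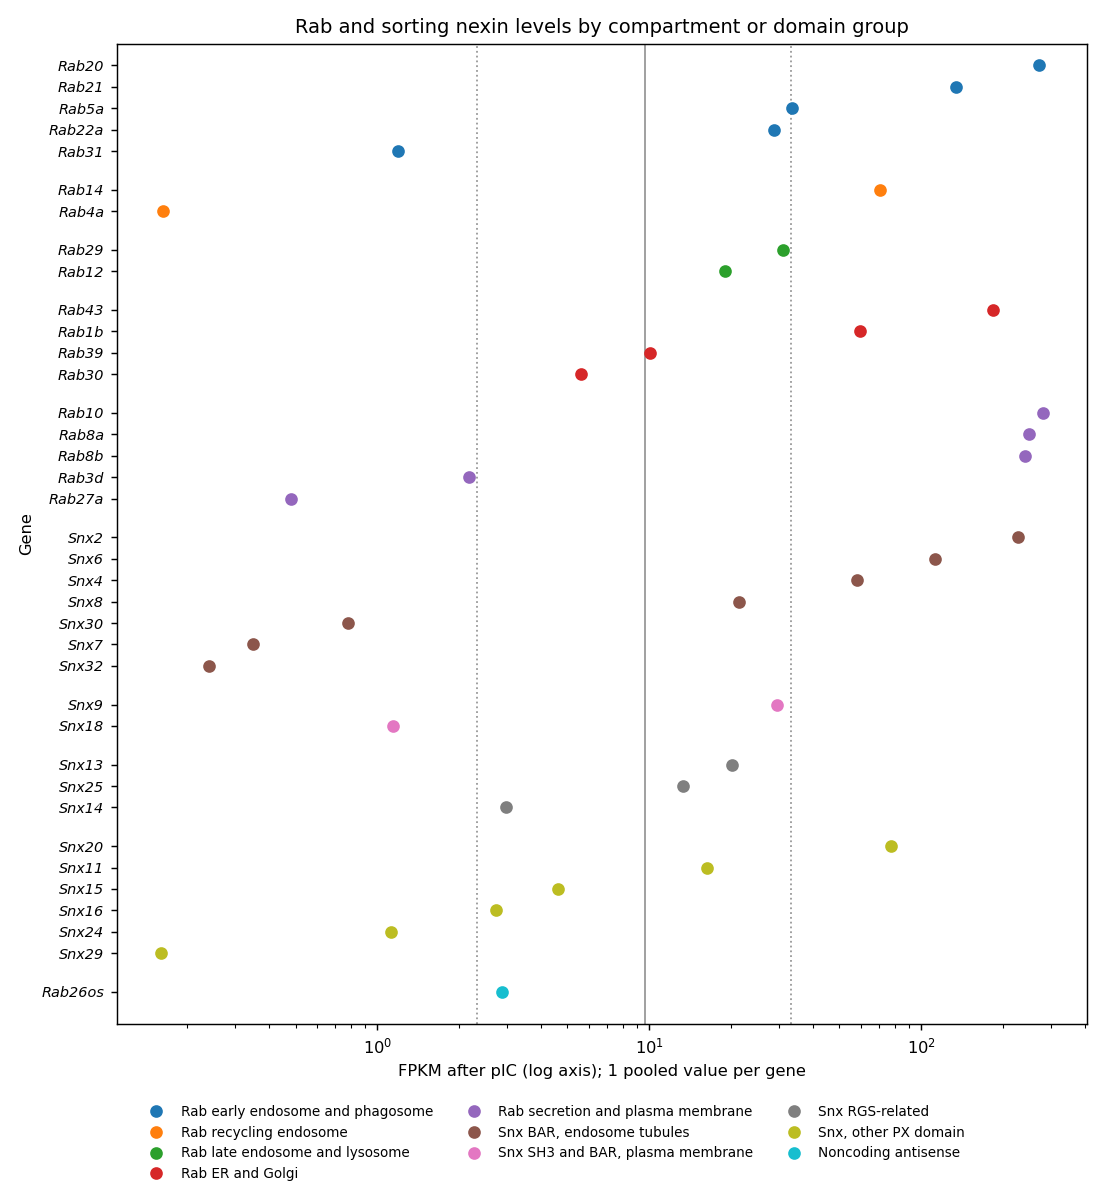
FPKM of each member after pIC on a log axis, 1 pooled value per gene, ordered within compartment or domain group, with the colour giving the group. The solid line is the median of all rows (9.68 FPKM) and the dotted lines are their quartiles (2.32 and 33.4). Rab10, Rab20, Rab8a and Rab8b stand at the right, between 241 and 282 FPKM.

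The secretory and plasma membrane group held 3 of the 4 highest members. Rab10, which drives delivery of vesicles to the plasma membrane, had the highest value of all members at 282 FPKM (mm10, chromosome 12, 3235791 to 3309969). Rab8a, which acts in exocytosis and in the formation of cilia, had 249.8 FPKM (chromosome 8, 72161200 to 72181366). Its close relative Rab8b had 241 FPKM (chromosome 9, 66843664 to 66919705). These 3 genes lie on 3 chromosomes and together made up 47.5% of the FPKM summed over the Rab rows. The other members of the group were low. Rab3d, a Rab of secretory granules, had 2.17 FPKM, and Rab27a, which docks secretory lysosomes and granules at the plasma membrane, had 0.479. Rab10 thus stood at 130 times the level of Rab3d and 588 times that of Rab27a, the latter a rough ratio to a value under 1 FPKM. Of the 12 genes assigned here to secretion and the plasma membrane, 5 had a row, where 22.2% of all RefSeq protein-coding genes did.

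Rab10, Rab8a and Rab8b are also close in sequence, so their coding sequences are shown to let a reader see how far reads could tell them apart. The 120 bases begin at coding base 13 of Rab8a and Rab8b and at base 16 of Rab10, from GENCODE M21 transcripts on GRCm38, and cover the part that encodes the phosphate-binding loop of the GTPase. Capitals mark the 30 positions at which the 3 genes are not all alike.
Rab8a: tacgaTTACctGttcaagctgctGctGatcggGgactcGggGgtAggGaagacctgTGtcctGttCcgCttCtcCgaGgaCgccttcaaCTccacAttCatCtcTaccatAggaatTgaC
Rab8b: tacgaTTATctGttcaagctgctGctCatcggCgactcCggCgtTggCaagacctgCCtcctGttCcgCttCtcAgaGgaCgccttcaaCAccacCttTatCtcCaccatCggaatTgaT
Rab10: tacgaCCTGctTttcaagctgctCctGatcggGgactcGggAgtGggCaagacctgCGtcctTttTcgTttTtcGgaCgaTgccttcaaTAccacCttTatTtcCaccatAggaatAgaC
The differences are scattered along the stretch, and 90 of the 120 positions are shared by all 3 genes. Over the whole coding sequence, Rab8a and Rab8b were 77.4% identical, Rab10 and Rab8b 69.6%, and Rab10 and Rab8a 68.0%. The longest exact stretch shared by the transcripts of any 2 of these genes was 17 bases. Rab8b shared a stretch of 279 bases with the processed pseudogene Gm20689, and Rab8a one of 74 bases with an Adam17 transcript that retains an intron. Of members described below or above, Rab27a, Snx4 and Rab5a shared 152, 121 and 67 bases with processed pseudogenes. Rab30 shared 74 bases with Pi15, and Snx30 shared 53 with Il11. The effect of such shared stretches on the FPKM of these genes was not measured.

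Similar sequence did not go with similar level throughout. Among the 306 pairs of listed genes within a family, 6 had a coding identity of 60% or more, 3 of them the pairs just named, whose levels differed by 1.04 to 1.17 times. In the other 3 pairs the levels were far apart. Rab22a stood at 24.2 times the level of Rab31 (68.1% identical), Snx6 at 472 times that of Snx32 (64.9%) and Rab14 at 435 times that of Rab4a (61.9%). The low partners Rab4a and Snx32 had 0.163 and 0.239 FPKM, above only 2.1% and 3.3% of all rows. Ratios to such low values, given without intervals, are rough. Rab4a and Snx32 both overlap another protein-coding gene on the same strand, Gm20388 and 1700020D05Rik.

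**Figure D2:**
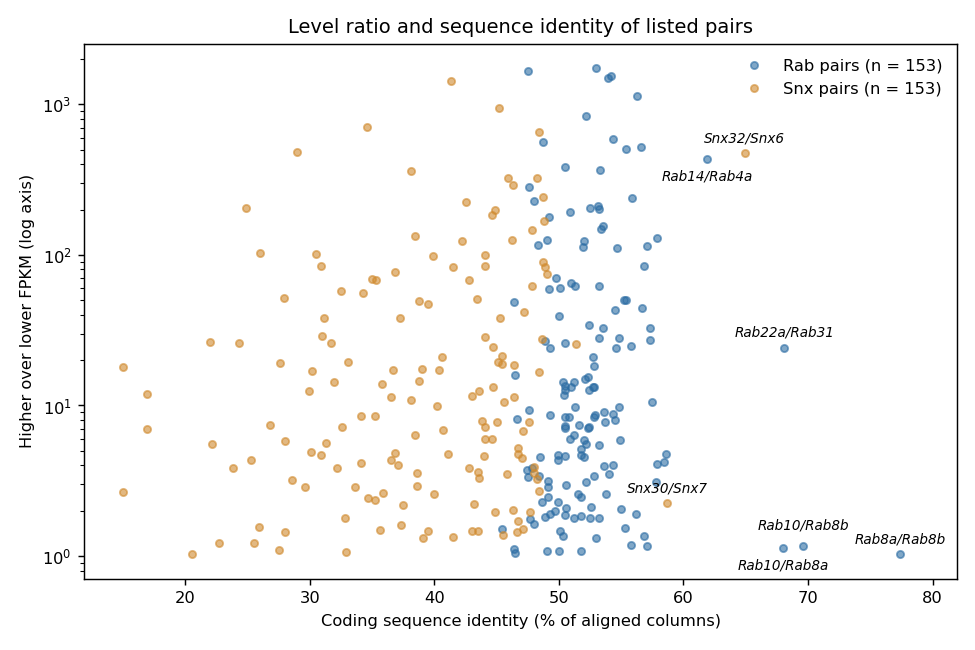
Each point is a pair of listed genes of the same family (153 Rab pairs, 153 Snx pairs), with the identity of their coding sequences in percent on the x axis and the ratio of the higher to the lower FPKM on a log y axis. The 7 most similar pairs are named. The Rab8a, Rab8b and Rab10 pairs lie near a ratio of 1. Rab14 with Rab4a and Snx32 with Snx6 lie at 435 and 472, rough ratios to values under 1 FPKM.

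In the early endosome and phagosome group, 5 of 7 genes had a row (71.4%), where 22.2% of all RefSeq protein-coding genes did. Of these 5, 4 lay above the median of all rows. Rab20, which acts in the maturation of phagosomes in macrophages, led with 271 FPKM (chromosome 8, 11453977 to 11480241), the second highest value of the members. Rab21, which carries integrins through early endosomes, had 135 FPKM (chromosome 10, 115289862 to 115315591). Rab5a, the central regulator of early endosome fusion, had 33.4 FPKM (chromosome 17, 53479234 to 53539451) and overlapped Pp2d1 on the opposite strand. The best known gene of the group was thus not its highest: Rab20 stood at 8.10 times and Rab21 at 4.04 times the level of Rab5a. Rab22a, which takes part in the recycling of MHC class I, had 28.8 FPKM, close to Rab5a at a ratio of 1.16. Rab31, a relative of Rab22a on the route from the Golgi to endosomes, had 1.19. The paralogs Rab5b and Rab5c had no row, so the summed level of Rab5 genes is unknown.

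The windows upstream of Rab5a and Rab21 are shown because both hold the letters TCACGTGA, and the windows of no other member did. This 8-base palindrome contains CACGTG, the E-box read by basic helix-loop-helix factors, among them TFEB, a regulator of lysosomal genes. Each window is the 250 bases before the RefSeq start site on GRCm38.p6, on the gene's strand, with CACGTG in capitals. The window of Rab5a is chr17:53478984-53479233 on the plus strand, and that of Rab21 is chr10:115315592-115315841 on the minus strand.
Rab5a: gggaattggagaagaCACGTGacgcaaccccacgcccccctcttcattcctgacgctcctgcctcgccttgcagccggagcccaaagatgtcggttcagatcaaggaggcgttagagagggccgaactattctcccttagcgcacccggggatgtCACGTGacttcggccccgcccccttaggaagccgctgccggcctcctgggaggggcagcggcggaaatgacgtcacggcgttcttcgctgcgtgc
Rab21: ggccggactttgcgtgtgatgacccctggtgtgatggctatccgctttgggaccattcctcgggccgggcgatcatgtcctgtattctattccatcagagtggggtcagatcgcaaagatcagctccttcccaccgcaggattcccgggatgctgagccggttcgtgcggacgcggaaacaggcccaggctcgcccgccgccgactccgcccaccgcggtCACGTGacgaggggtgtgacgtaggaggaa
CACGTG begins at positions -235 and -95 of Rab5a, of which the second is flanked by T and A, and at -30 of Rab21. Windows of 250 bases before to 50 after the start were at hand for 27 of the 36 protein-coding members. Searched on both strands, CACGTG was in 6 of the 27 (Rab20, Rab21, Rab27a, Rab5a, Snx18 and Snx8), against 8.91% of 17492 protein-coding genes and 12.2% of 3813 listed ones. TCACGTGA, which always overlaps CACGTG, was in 1.41% of all and 2.2% of listed genes. A pair of GAAA separated by 2 bases is the core of the interferon-stimulated response element. It was in 0 of 27 member windows, 3.94% of all genes and 4.69% of listed ones. The NF-kB consensus was in 0 of 27, 5.53% and 6.82%. At such shares few matches are expected in 27 windows, so these counts say little. These are matches of letters, and no binding was measured. With the window richest in CpG dinucleotides taken for each gene, the median count was 27 for members, 22 for listed genes and 15 for all.

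Of 9 Rab genes assigned to recycling endosomes, 2 had a row (22.2%, the share of all RefSeq protein-coding genes), and their levels were far apart. Rab14, which moves cargo between the Golgi, endosomes and phagosomes, had 70.8 FPKM (chromosome 2, 35180205 to 35201120), and Rab4a, a Rab of rapid recycling, had 0.163. Rab11a and Rab11b, the defining Rab genes of recycling endosomes, had none. If Rab8a, Rab8b and Rab10 are counted as recycling Rab genes, a role they also have, the median of this group moves from 35.5 to 241 FPKM, and that of the secretory group from 241 to 1.33. Of 11 genes assigned to late endosomes and lysosomes, 2 had a row (18.2%, near that share), both between the median and the upper quartile of all rows. Rab29, a partner, in human cells, of the kinase LRRK2 at the Golgi and lysosomes, had 31.1 FPKM and Rab12, which acts in the passage of receptors to lysosomes, had 18.9. Rab7, which defines late endosomes, and Rab9 had no row.

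Among the Rab genes assigned here to the ER and Golgi, 4 of 14 had a row (28.6%), near the 22.2% of all RefSeq protein-coding genes. Rab43, which acts between the ER and the Golgi and is required for cross-presentation of cell-associated antigen by CD8α+ dendritic cells, had 184 FPKM (chromosome 6, 87788853 to 87812164). Its value is uncertain, because its transcripts share 4166 bases with the read-through gene Gm45140. Rab1b, which carries vesicles from the ER to the Golgi, had 59.5 FPKM. Rab39, linked to cross-presentation in dendritic cells, had 10.0 FPKM, near the median of all rows, and the Golgi Rab gene Rab30 had 5.60. Rab39 may also be counted with late endosomes and lysosomes, which would change the counts of both groups. That placement was not tried. Rab43 stood at 3.09 times the level of Rab1b and 32.8 times that of Rab30. Rab26os had 2.88 FPKM (chromosome 17, 24528251 to 24528744). It lies opposite Rab26, which had no row of its own, and as the use of strand is not stated, reads of the 2 genes cannot be told apart. All 6 Rab genes left without a compartment (Rab23, Rab28, Rab40b, Rab40c, Rab42 and Rab44) had no row.

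The sorting nexins with a BAR domain that act on endosomal tubules held both the highest and some of the lowest sorting nexins. Snx2, which works with Snx1, Snx5 and Snx6 in retrieving cargo from endosomes, had 228 FPKM (chromosome 18, 53176365 to 53220860). It shared 176 bases with the pseudogene Gm12543. Snx6 had 113 FPKM (chromosome 12, 54746357 to 54795662), and together they made up 57.6% of the FPKM summed over the sorting nexins. Their usual partners Snx1 and Snx5 had no row. Snx4, which sorts recycling cargo and acts in autophagy, had 58.0 FPKM. The genes of its binding partners, Snx7 and Snx30, had 0.348 and 0.777 FPKM. Snx8 had 21.5 and Snx32, the closest listed relative of Snx6, 0.239. Levels in this group thus formed a higher set of 4 and a set of 3 under 1 FPKM, with no member between 0.777 and 21.5.

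Among the sorting nexins that combine SH3 and BAR domains and act with dynamin in endocytosis, Snx9 had 29.4 FPKM and Snx18 had 1.15. The 3 listed genes of the RGS-related group all lay under the upper quartile of all rows, 33.4 FPKM. Snx13 had 20.1 FPKM, Snx25 had 13.3, and Snx14, which in human cells acts at contacts between the ER and lipid droplets, had 2.97 and shared 546 bases with Gm20537. Among the remaining PX domain genes, Snx20, whose protein binds the adhesion molecule PSGL-1 of leukocytes, stood apart at 77.5 FPKM (chromosome 8, 88626828 to 88636128). It was followed by Snx11 at 16.4, a ratio of 4.74. Snx15 had 4.62 FPKM, Snx16, in a row that overlaps Chmp4c on the opposite strand, 2.72, Snx24 1.12 and Snx29 0.160, the lowest value of the members. Snx17, Snx27 and Snx31, the FERM-like group that couples cargo to retromer and retriever, had no row.

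Across the families, 18 of 59 RefSeq protein-coding Rab genes (30.5%) and 18 of 30 sorting nexin genes (60%) had a row, and 22.2% of all RefSeq protein-coding genes did. Having a row was a condition for membership, so these shares are a description. A gene without a row may not have differed or may not have been tested, and its level is unknown.

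**Figure D3:**
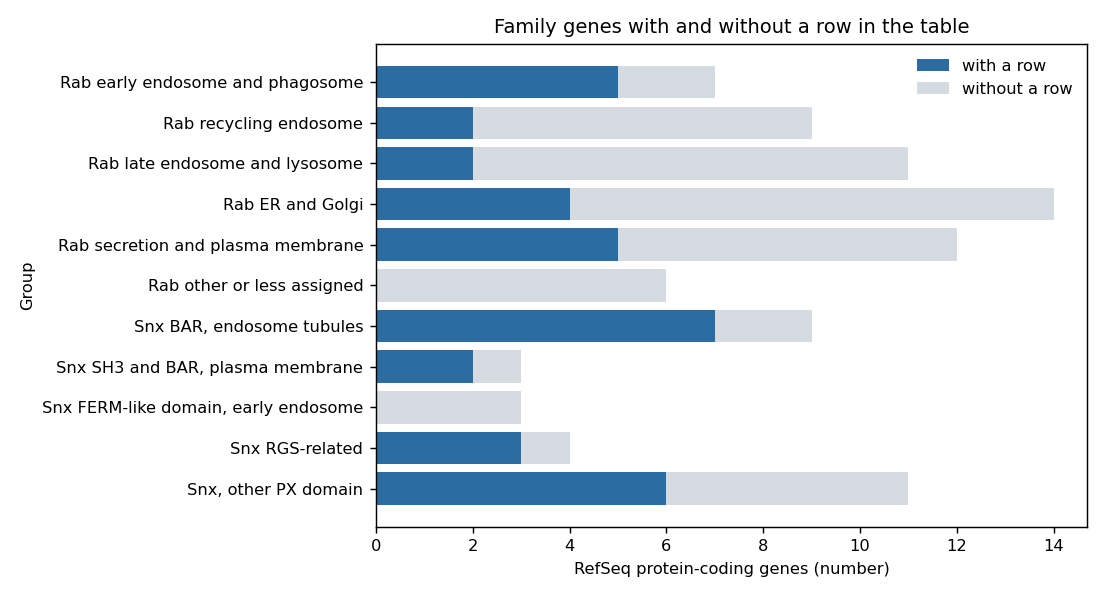
Number of RefSeq protein-coding genes of each compartment or domain group with a row in the table (dark) and without (light). The BAR domain sorting nexins (7 of 9) and early endosome Rab genes (5 of 7) have most of their genes in the table, and late endosome Rab genes have 2 of 11. Among all RefSeq protein-coding genes the share is 22.2%.

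The members lie on 17 chromosomes, and members near each other had unlike levels. The coding members spanned 1761 times from lowest to highest, and no comparison with distant pairs was made. Snx2 and Snx24 are separated by 24.8 kb on chromosome 18, on the same strand, at 228 and 1.12 FPKM. Rab31 and Rab12 lie 721.8 kb apart on chromosome 17 at 1.19 and 18.9 FPKM. On chromosome 19, Snx32, at 0.239 FPKM, lies 388.3 kb from Rab1b and 608.9 kb from Snx15. In all, 30 of the 37 intervals overlap no other protein-coding gene. The share over all rows was not computed, so this count is a description.

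Other genes of endosomal traffic had a row in 78 of 206 cases (37.9%) over 9 lists, where 22.2% of all RefSeq protein-coding genes did. The share was 45.7% to 62.5% in the lists of Rab regulators and effectors and 10% to 28.6% in the others. The median of the listed genes was 14.3 FPKM, between those of the sorting nexins and the Rab genes. Of the enzymes that switch Rab proteins on, 18 of 33 exchange factors had a row (median 14.7 FPKM). The highest were Dennd5a at 114, Dennd4b, in human an exchange factor for Rab10, at 70.8, and Mon1b, part of the exchange factor for Rab7, at 29.5, on a row that carries accessions of 2 genes. Of the GTPase-activating proteins that switch them off, 16 of 35 had a row (median 9.81), led by Tbc1d8 at 105, Tbc1d10b at 61.8 and Tbc1d1 at 55.5. Of the effectors, 16 of 33 had a row (median 8.48). Ehbp1l1, an effector of Rab8, led them at 81.9, followed by Rilpl2 at 25.7 and Rabep2, which binds Rab5, at 22.2. Of the 8 genes for prenylation of Rab proteins and their passage on and off membranes 5 had a row (median 8.74), among them Rabac1 at 25.5 and Chm at 8.74.

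The other 5 lists hold coats, tethers, SNAREs, and lipid enzymes with their partner proteins. Of their genes 10% to 28.6% had a row, where 22.2% of all RefSeq protein-coding genes did. The ESCRT genes, which sort ubiquitinated cargo into multivesicular bodies, had 7 of 26 rows (median 19.5 FPKM), with Chmp4b at 305, above every member, Chmp5 at 149 and Hgs at 36.4. Retromer, retriever and their CCC partner complex, which act with sorting nexins, had 5 of 18 (median 22.0), with Commd3 at 32.7, Commd8 at 23.9 and Commd4 at 22.0. Of retromer itself only Vps26b had a row, a gene chosen for mention after its value was seen, at 3.46. The HOPS and CORVET tethers, which bind Rab7 and Rab5, had 1 of 10, Tgfbrap1 at 3.11 FPKM. Endosomal SNAREs, which fuse the membranes, had 6 of 21 and the highest median of the 9 lists, 43.7 FPKM. The highest were Stx11 at 91.8, Stx4a, which acts mainly at the plasma membrane, at 89.2, and Vamp8 at 44.9. Genes for phosphoinositide enzymes and their partner proteins had 4 of 22 (median 6.05), with Mtmr4 at 154, Mtm1 at 8.37 and Pikfyve at 3.74. The enzymes make and remove the lipids that sorting nexins bind.

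**Figure D4:**
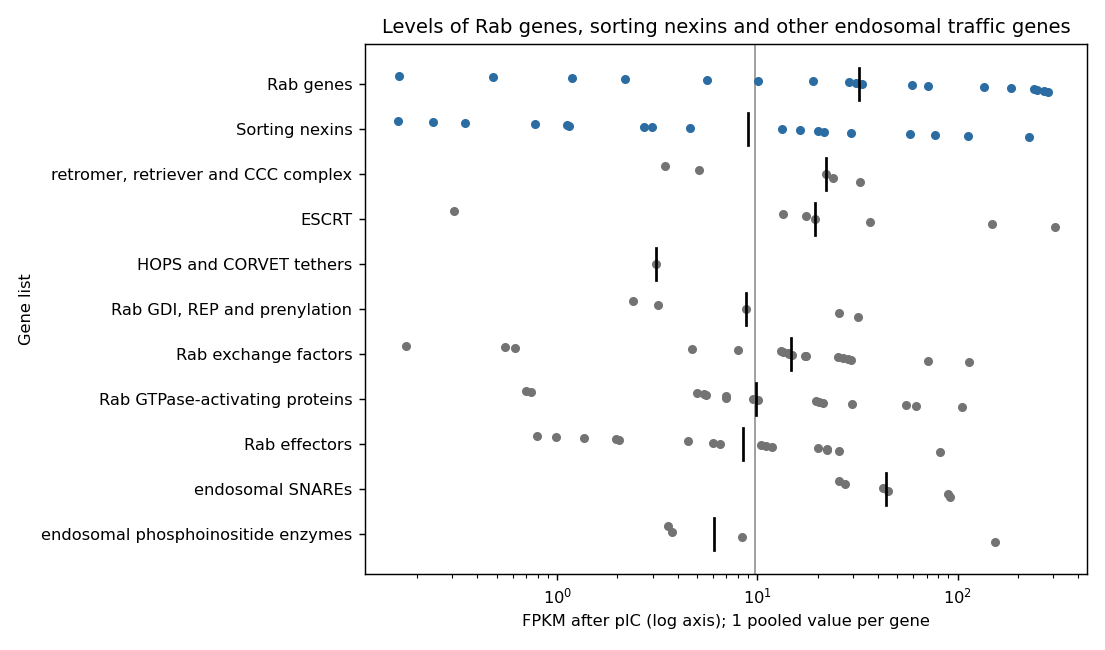
FPKM after pIC on a log axis for the listed Rab genes, sorting nexins (blue) and genes of the 9 other endosomal traffic lists (grey), with 1 point per gene and a black bar at each median. The grey line is the median of all rows (9.68 FPKM). The Rab genes and the ESCRT genes reach the highest values, 282 and 305 FPKM.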

How the data were processed

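Poly(A) RNA of 2 libraries was sequenced by Illumina, per the labels and design text. Reads were checked and processed with TopHat2 2.1.0, Cufflinks 2.2.1 and FastQC 0.11.5 on mm10, per the submitters' processing notes. The deposited values are FPKM computed by the authors, 1 per gene for the stimulated condition, per the file headers. The way the 2 libraries were combined and the test behind the sheet's name are not stated in the sources used here. Without a depth, intervals and detection limits could not be given, and no test was run. There were 0 columns of samples from elsewhere and 1 empty line.

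The members and the gene lists were chosen with earlier results of these data known. The rule on names was every member, the 3 highest listed genes of each traffic list and the 2 highest of each marker list. A gene that this rule names is not reported here. The planned test on values per library, with pseudocounts and libraries left out, could not be run on 1 value per gene. Starts were raised by 1, as intervals count from 0: after this 49.9% of 4802 rows had the start of their RefSeq gene on GRCm38.p6, against 3.8% before. Overlaps and transcripts came from GENCODE M21. The coding sequence of a member was the longest among transcripts matched by accession. Identity is the share of aligned columns in a global alignment (match 2, mismatch -1, gap opening -5, extension -1), and stretches of 49 bases or more shared with another gene's transcripts were searched. The sequence searches were tested on simulated sequences. Motifs were chosen after the members' levels had been seen. Python 3.11.15, pandas 2.3.3, numpy 2.4.6, Biopython 1.88 and matplotlib 3.10.9 were used.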

Additional observations from a re-analysis of the deposited data

How the results depend on the processing

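No paired analysis was possible because the table pools both libraries of its 1 group. For the same reason pseudocounts and leaving out a library were not run. A floor of 5 FPKM left 23 of the 37 rows, and the number stayed within 1.5 times with a floor of 1 FPKM, with protein-coding rows alone and with members matched by RefSeq symbol. The Rab median of 31.1 FPKM became 33.4 and 65.1 with floors of 1 and 5 FPKM, by construction, and 32.3 with protein-coding rows alone. The sorting nexin median of 8.97 FPKM became 18.2 and 29.4 with those floors and 16.4 without rows that overlap another protein-coding gene. The Rab median was above the sorting nexin median under each of these settings. The compartment given to Rab8a, Rab8b and Rab10 was varied after seeing the data. It moved the recycling median from 35.5 to 241 FPKM and the secretory one from 241 to 1.33. As the depth is not known, its effect on these levels was not measured.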

Other observations

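The first 2406 rows of the table (49.1%) stand in rising order of locus number. Of the members, 17 of 37 (45.9%) stood there, 9 of 19 Rab rows and 8 of 18 sorting nexin rows, a share near that of all rows. Rab20, Rab8a, Rab8b and Snx2 stood in this stretch and Rab10, the highest member, did not.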
